A study of Rattus norvegicus with 19 samples.

Results

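The immediate early transcription factors examined were Fos, Fosb, Fosl2, Jun, Junb, Egr1, Egr2, Egr3, Atf3 and Nr4a1, taken by symbol from the count tables of rat hearts. They made up 10 of the 17455 gene symbols counted, and all 10 were among the 12388 genes with enough reads to be tested. Immediate early genes are transcribed rapidly after a stimulus by factors already present in the cell, before new protein is made. The FOS and JUN proteins pair through leucine zippers to form the AP-1 complex, the EGR proteins bind GC-rich DNA through zinc fingers, ATF3 belongs to the stress-induced branch of the ATF/CREB family, and NR4A1 is an orphan nuclear receptor. In heart muscle these genes are known to respond to stretch, growth factors and adrenergic stimulation.

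The hearts came from Sprague–Dawley rats, 24 weeks old at the start. Every library is labelled male, and the study's methods also give male rats as the source of the RNA, while the treatment notes describe groups with as many females as males. Heart failure with preserved ejection fraction (HFpEF) was induced over 5 weeks with L-NAME, which blocks nitric oxide synthase, given in drinking water at 0.5 g/L, and a high-fat diet with 60% of its calories from lard, while controls ate normal chow without L-NAME. HFpEF rats were then gavaged daily for 4 weeks with phosphate-buffered saline alone (untreated), with empagliflozin (EMPA, an SGLT2 inhibitor, 0.35 g/kg/day), with pirfenidone (PFD, an antifibrotic, 0.3 g/kg/day) or with both (EMPA + PFD). The study's methods give 5 weeks of induction and its discussion speaks of 9. Whether L-NAME and the high-fat diet went on during the drug weeks is therefore not clear. RNA of 1 heart made each library, from the left ventricle by the study's methods. At week 5 there were 3 control (control 5w) and 3 HFpEF libraries, and at week 9 there were 3 libraries each of control (control 9w), untreated and EMPA + PFD hearts and 2 each of EMPA and PFD hearts.

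Total counts ran from 7430539 to 13017754 per library, with a median of 9951011. Levels are given below as CPM, which are read counts relative to the TMM-scaled size of the library. The number of reads behind them differed, since Egr3 was counted only 3 to 152 times per library and Jun 1299 to 4149 times.

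Some libraries stood apart in ways that the groups do not describe. By the mean chi-square between 2 libraries, where smaller means closer, control 5w 1 was closer to EMPA + PFD 1 (43.5) than to control 5w 3 (144) and 2 (187). Untreated 2 was closer to HFpEF 2 (50.9) than to untreated 3 (143) and 1 (176). The closest pair of all was untreated 1 and PFD 2 (6.70). Eif2s3y, a gene of the Y chromosome, was counted 613 to 1321 times in 12 libraries and 0 times in 7, which were HFpEF 1 and 3, all 3 untreated and both PFD libraries. These carry the same male label, and 0 reads there allow at most 0.215 to 0.329 CPM by counting error alone (3 reads). RT1-CE16, a class I histocompatibility gene, had 308 to 922 reads in libraries of control 9w, untreated, EMPA + PFD and PFD hearts and at most 3 reads in the control 5w, HFpEF and EMPA libraries. Myl4, an atrial myosin light chain in the adult heart, had 19668 reads in untreated 2, 13853 in control 9w 3 and 2702 in control 9w 1, against 24 to 436 in the others. All 8 cardiomyocyte markers were counted in every library, with sums from 12948 CPM in HFpEF 1 to 90279 CPM in EMPA + PFD 2. In bulk tissue, fewer cells of a type and less RNA per cell cannot be told apart.

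A gene was called a differentially expressed gene (DEG) at a Benjamini–Hochberg (BH) adjusted p under 0.05 and at least a 2-fold change, in edgeR's quasi-likelihood test across all 12388 tested genes and all 19 libraries. The comparisons were disease establishment (DE, HFpEF against control 5w), the untreated consequence (UT, untreated against control 9w), the physiological change (PC, control 9w against control 5w) and the treatment effect (TE, EMPA + PFD against untreated). Added to these were EMPA against untreated, PFD against untreated, and EMPA + PFD against control 9w. Several comparisons share libraries, since control 5w enters DE and PC, control 9w enters UT, PC and the last comparison, and the untreated group enters UT and every comparison with a drug against it. The groups of UT, of TE and of EMPA against untreated differ completely in Eif2s3y, and those of PC and of EMPA against untreated in RT1-CE16, so these differences and the group effects cannot be told apart there.

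**Figure D1:**
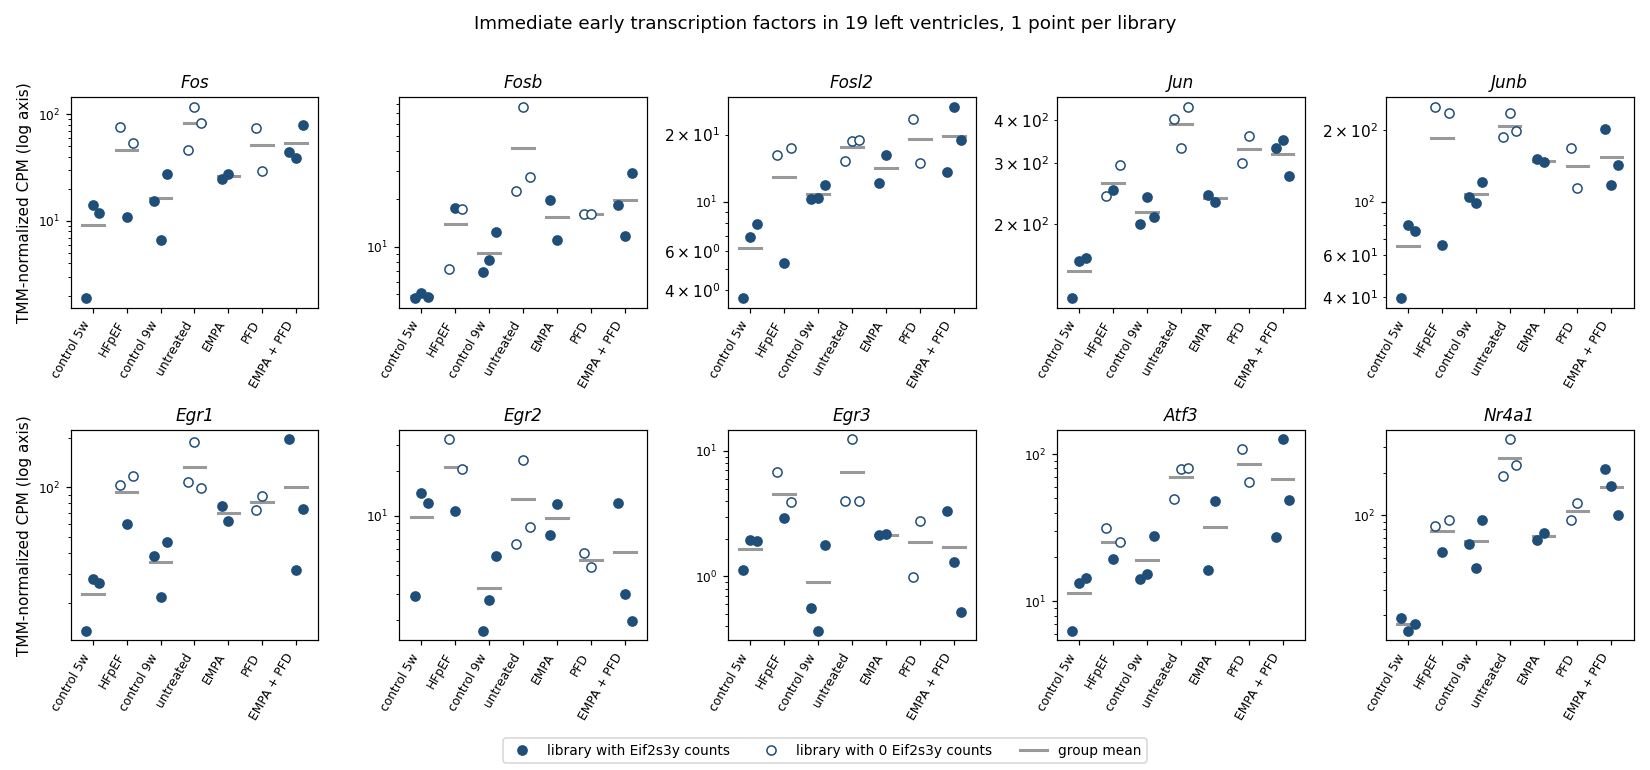
Level of each immediate early transcription factor in every library (CPM, log axis) in the 7 groups, with filled points for libraries with Eif2s3y reads, open points for libraries with 0, and gray bars for group means. The mean was highest in the untreated group for 7 of the 10 genes and lowest in control 5w for 8.

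At disease establishment, 5 of the 10 genes were DEGs in edgeR, all higher in HFpEF, namely Fos, Fosb, Junb, Egr1 and Nr4a1. Of all tested genes, 4.28% were called higher in DE and 4.41% lower. DESeq2 also called Fosl2 and voom Egr3, both higher, where they called 1271 and 1363 genes in all. All 10 had a positive log2 fold change, with a median of 1.47 against 0.02 over all tested genes. The 3 HFpEF libraries lay above all 3 controls for 6 of the 10 (Fosb, Jun, Egr1, Egr3, Atf3 and Nr4a1), as did 18.6% of all tested genes.

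Fos, which encodes the founding FOS protein of AP-1, stood at 1.88, 14.0 and 11.9 CPM in control 5w 1, 2 and 3 and at 75.6, 10.8 and 53.8 CPM in HFpEF 1, 2 and 3. HFpEF 2 thus lay among the controls, and control 5w 1 lay far below the other controls. The log2 fold change was 2.32 ± 0.73 (SE), with an edgeR BH-adjusted p of 0.0377. Fosb, a FOS relative that is induced more slowly and also makes a truncated, stable protein, was at 4.71, 5.12 and 4.77 CPM in the controls and at 7.18, 17.5 and 17.2 CPM in HFpEF. Here HFpEF 2 was the highest library and HFpEF 1 the lowest of its group, the reverse of Fos, and the groups did not overlap (log2 fold change 1.51 ± 0.48, edgeR BH-adjusted p = 0.0390). Junb, a JUN protein with weaker transactivation than JUN, stood at 39.4, 80.4 and 75.4 CPM in the controls and at 251, 66.2 and 237 CPM in HFpEF. Its pattern over the 6 libraries followed that of Fos, with HFpEF 2 inside the control range (1.51 ± 0.39, edgeR BH-adjusted p = 0.0168).

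The remaining AP-1 members were not DEGs in edgeR. Jun, the main partner of the FOS proteins, was at 122, 157 and 160 CPM in the controls and at 241, 251 and 297 CPM in HFpEF. All 3 HFpEF libraries were above all controls and close to each other, and Jun passed the test but not the 2-fold threshold (0.84 ± 0.15, edgeR BH-adjusted p = 0.00289). Fosl2, which encodes FRA2, a later FOS protein linked to fibrosis, ranged from 3.67 to 7.96 CPM in the controls and stood at 16.1, 5.32 and 17.4 CPM in HFpEF. HFpEF 2 again lay within the controls, and the difference missed the threshold (1.06 ± 0.38, edgeR BH-adjusted p = 0.0620).

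Among the zinc finger factors, Egr1, a target of the ERK and SRF pathway, stood at 13.5, 27.9 and 26.3 CPM in the controls and at 104, 60.0 and 118 CPM in HFpEF. Even HFpEF 2, the lowest, was above every control (2.06 ± 0.53, edgeR BH-adjusted p = 0.0162). Egr2 was at 2.92 to 14.2 CPM and 10.7 to 32.5 CPM and overlapped (1.13 ± 0.69, edgeR BH-adjusted p = 0.256). Egr3, at 1.13 to 1.94 CPM in the controls and 2.93 to 6.75 CPM in HFpEF, did not overlap but missed the threshold (1.44 ± 0.65, edgeR BH-adjusted p = 0.125).

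Nr4a1, a nuclear receptor without a known ligand of its own that is induced by cAMP and calcium signals, stood at 19.1, 15.5 and 17.3 CPM in the controls and at 84.4, 55.7 and 93.2 CPM in HFpEF. The controls were tightly grouped and every HFpEF library was well above them. It had the smallest adjusted p of the 10 in DE (2.17 ± 0.32, edgeR BH-adjusted p = 0.00107). Atf3, a stress-induced repressor and AP-1 partner, ranged from 6.31 to 14.5 CPM in the controls and from 19.4 to 31.6 CPM in HFpEF, without overlap (1.16 ± 0.53, edgeR BH-adjusted p = 0.129).

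How far these calls rested on single libraries differed between genes. Nr4a1 remained a DEG without each of the 6 libraries in turn (log2 fold change 2.02 to 2.36). Fos did so only without HFpEF 2, and its edgeR BH-adjusted p was 0.104, 0.0523 and 0.0734 without control 5w 1, 2 and 3 and 0.127 and 0.0722 without HFpEF 1 and 3, within a range of 0.00459 to 0.903 over all alternatives. Fosb did so only without HFpEF 1, with edgeR BH-adjusted p of 0.0962, 0.0817 and 0.0948 without control 5w 1, 2 and 3 and 0.112 and 0.0949 without HFpEF 2 and 3 (0.00161 to 0.112 over all alternatives). Junb was lost without control 5w 1 (edgeR BH-adjusted p = 0.0604) and without HFpEF 1 (0.0589), within 0.00042 to 0.976 over all alternatives, and Egr1 without control 5w 1 (0.0599, range 0.000406 to 0.197). Fosl2 became a DEG without HFpEF 2 (1.43, edgeR BH-adjusted p = 0.0120, range 0.00819 to 0.773). In a fit of only the groups compared, Fos, Fosb and Junb missed the threshold (edgeR BH-adjusted p = 0.139, 0.0638 and 0.120).

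HFpEF 2 was also the only HFpEF library with Eif2s3y reads, as all control 5w libraries had. With HFpEF 1 and 3 left out, the log2 fold change was 0.21 for Fos, 0.02 for Junb, −0.22 for Fosl2, 1.41 for Egr1, 1.84 for Fosb and 1.69 for Nr4a1. Only Nr4a1 was then a DEG (edgeR BH-adjusted p = 0.0244, range 4.23e-09 to 0.0244), with a single HFpEF library whose spread is taken to be that of the other groups. Jun was at 0.77 there (edgeR BH-adjusted p = 0.0348, range 5.73e-07 to 0.0376).

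Marker genes of several cell types moved between the same libraries. The 10 macrophage markers, led by Lyz2, summed to 778, 2372 and 1926 CPM in control 5w 1, 2 and 3 and to 3483, 767 and 2047 CPM in HFpEF 1, 2 and 3, so that control 5w 1 and HFpEF 2 were lowest in their groups, as for Fos and Junb. None of the 10 was a DEG in DE and none was at 0. The 8 fibroblast markers, led by Col3a1 in all but control 5w 1, where Dcn led, summed to 4505, 44963 and 36468 CPM in the controls and to 17219, 9629 and 12721 CPM in HFpEF, with none called and none at 0. The 8 cardiomyocyte markers summed to 81549, 41296 and 45148 CPM in the controls and to 12948, 19844 and 34856 CPM in HFpEF, with Actc1, Myh7 or Myh6 the most abundant, 2 of 8 lower (Actc1 −2.0 ± 0.55 and Ryr2 −1.24 ± 0.33) and none at 0. The part of these differences in the levels of the immediate early genes was not tested.

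At week 9, 2 of the 10 genes were DEGs in UT in edgeR, Fosb and Nr4a1, both higher in untreated hearts. Of all tested genes, 0.339% were called higher and 0.573% lower. DESeq2 also called Fos, Egr1, Egr3 and Atf3, and voom these 4 and Jun and Egr2, all higher, while over all genes DESeq2 called 297 and voom 1037. Every untreated library lay above every control 9w library for all 10 genes, which held for 9.48% of all tested genes. The median log2 fold change was 1.92 against 0.01 over all tested genes, and 9 of 10 had an unadjusted p under 0.05, as had 2259 of all 12388 tested genes. Without untreated 2, calls over all tested genes went from 113 to 413, and without control 9w 1 or 2 or untreated 1 or 3 they fell to 21, 7, 14 and 28.

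Nr4a1 stood at 62.6, 43.2 and 93.1 CPM in control 9w 1, 2 and 3 and at 190, 342 and 227 CPM in untreated 1, 2 and 3. Untreated 2 was the highest of all 19 libraries, and the lowest untreated library exceeded the highest control by a wide margin (1.93 ± 0.32, edgeR BH-adjusted p = 0.0118). Fosb was at 6.88, 8.24 and 12.4 CPM in the controls and at 22.6, 76.6 and 27.4 CPM in untreated hearts. Untreated 2 stood far above the other untreated libraries, which were themselves above all controls (2.20 ± 0.48, edgeR BH-adjusted p = 0.0319). Jun, at 201, 239 and 210 CPM in the controls and 402, 333 and 437 CPM in untreated hearts, passed the test below 2-fold (0.85 ± 0.15, edgeR BH-adjusted p = 0.0183).

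The other 7 genes missed edgeR's adjusted threshold although their libraries did not overlap. Egr3 had only 5, 3 and 18 reads in control 9w 1, 2 and 3 and 38, 152 and 38 in untreated 1, 2 and 3, with untreated 2 again highest (2.86 ± 0.70, edgeR BH-adjusted p = 0.0538). Fos stood at 15.5, 6.64 and 27.5 CPM in the controls and at 46.4, 117 and 82.6 CPM in untreated hearts, with a wide spread in both groups (2.30 ± 0.72, edgeR BH-adjusted p = 0.104). For Egr1 (1.90 ± 0.52), Atf3 (1.87 ± 0.53), Egr2 (1.97 ± 0.75), Junb (0.94 ± 0.38) and Fosl2 (0.70 ± 0.38), edgeR BH-adjusted p was 0.0711, 0.0762, 0.174, 0.204 and 0.342.

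In UT, too, single libraries moved the calls. Nr4a1 missed the threshold without control 9w 1 (edgeR BH-adjusted p = 0.0791) and without control 9w 2 (0.0763), within a range of 1.13e-06 to 0.362 over all alternatives. Fosb did so without control 9w 1 (edgeR BH-adjusted p = 0.140), control 9w 2 (0.144), untreated 1 (0.0612) and untreated 3 (0.0614), within 0.000211 to 0.215. Without untreated 2, Fosb was at 1.44 (edgeR BH-adjusted p = 0.0420) and Nr4a1 at 1.65 (0.0118), and both remained DEGs. Egr3 became a DEG without control 9w 3 (3.83, edgeR BH-adjusted p = 0.0415, range 0.000206 to 0.547). Jun passed the test without control 9w 3 or untreated 2 but not without control 9w 1 (edgeR BH-adjusted p = 0.0925), control 9w 2 (0.0649), untreated 1 (0.0770) or untreated 3 (0.0623), within 3.22e-06 to 0.293. In a fit of only the groups compared, Fosb and Nr4a1 both missed the threshold (edgeR BH-adjusted p = 0.1175 and 0.0584). They did so too with the presence of Eif2s3y as a term (2.73, edgeR BH-adjusted p = 0.215, and 1.26, 0.362). That term was chosen after seeing the data and can be estimated from the HFpEF libraries alone. With it, 2 of all tested genes were called in UT, against 113 without it, and Fos, Fosl2 and Junb had a negative change. In the fit of only the groups compared, 105 of all tested genes were called.

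Untreated 2 and control 9w 3 were also the libraries with the most Myl4. The 7 atrial markers, led by Nppa except in untreated 1, where Nr2f2 led, summed to 5247, 229 and 23415 CPM in control 9w 1, 2 and 3 and to 82.5, 14940 and 510 CPM in untreated 1, 2 and 3, with none at 0 and none called in UT. Control 9w 3 was the highest of its group for 9 of the 10 immediate early genes, and untreated 2 for 7. The 8 cardiomyocyte markers, led by Myh6, summed to 61449, 17686 and 55610.1 CPM in untreated 1, 2 and 3 and the 10 macrophage markers, led by Lyz2, to 443, 1012 and 523 CPM, so that untreated 2 was lowest in the first and highest in the second, with none called in UT and none at 0. The 5 erythroid markers, led by Hbb, summed to 1491, 1787 and 1153 CPM in control 9w and to 227, 181 and 297 CPM in untreated hearts, with 2 of the 4 tested lower (Alas2 −2.92 ± 0.63, Hbb −2.65 ± 0.59) and Hba-a2 at 0 in 11 of 19 libraries. The part of these lists in the results for the immediate early genes was not tested.

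DE and UT were set against each other in the same model. Libraries of DE had at most 3 RT1-CE16 reads and those of UT 583 to 922, and only the groups of UT differed completely in Eif2s3y. These differences and that between the weeks can therefore not be told apart, for the 10 genes or for the lists below. None of the 10 genes was a DEG for the difference of the 2 effects in edgeR, while 12% of all tested genes were called in either direction, 0 of the 10 had an unadjusted p under 0.05, DESeq2 called 0 and voom called Egr3 and Atf3. Over all 12388 tested genes, 4374 had an unadjusted p under 0.05, DESeq2 called 1795 and voom called 2559. The median difference was 0.01, and edgeR BH-adjusted p ran from 0.302 for Egr3 (−1.41 ± 0.95) to 0.991 for Fos (0.02 ± 0.96). A difference between the weeks was therefore not shown for any of them by edgeR, and with an SE of this size a 2-fold difference in Fos was not detectable. Nr4a1 differed by 0.24 ± 0.44 and Jun by −0.01 ± 0.21.

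In the healthy hearts, Nr4a1 was the 1 of the 10 genes that was a DEG between the weeks in edgeR and in DESeq2, being higher in control 9w (PC, 1.94 ± 0.32, edgeR BH-adjusted p = 0.000723), and voom also called Egr2 and Egr3, both lower, where it called 2716 genes in all and DESeq2 1958. Of all tested genes, 7.46% were called higher and 7.21% lower. Jun was higher below 2-fold (0.56 ± 0.15, edgeR BH-adjusted p = 0.0106). The libraries of 5 genes (Fosb, Fosl2, Jun, Junb and Nr4a1) did not overlap, all higher in control 9w, against 24.6% of all tested genes. The median over the 10 was 0.74 against −0.04 over all tested genes, but only 2 had an unadjusted p under 0.05, against 5626 of all 12388 tested genes.

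Egr2 and Egr3 were the 2 genes with a negative change in PC. Egr2 was at 2.92, 14.2 and 12.1 CPM in control 5w and at 1.69, 2.71 and 5.38 CPM in control 9w, so the groups overlapped through control 5w 1 (−1.57 ± 0.74, edgeR BH-adjusted p = 0.114). Without that library it was a DEG (−1.99, edgeR BH-adjusted p = 0.0484, range 4.25e-05 to 0.297 over all alternatives). Jun missed the threshold without control 9w 2 (0.49, edgeR BH-adjusted p = 0.0512, range 0.000262 to 0.0512), and Nr4a1 remained a DEG without each library in turn (1.61 to 2.17).

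Markers of several non-muscle cell types were called in PC. All 8 fibroblast markers had a negative change and 6 were called lower (Col1a1 −4.30 ± 0.96), with sums of 4324, 3073 and 4606 CPM in control 9w, led by Dcn and close to the 4505 CPM of control 5w 1. Of the 10 macrophage markers 6 were called lower (Csf1r −1.83 ± 0.34), with sums of 436, 347 and 523 CPM in control 9w, led by Lyz2. Of the 8 endothelial markers 6 were called higher (Pecam1 1.56 ± 0.21), with sums of 2066, 1837 and 2054 CPM in control 5w and 4553, 4439 and 4166 CPM in control 9w, led by Eng or Kdr. No marker of these lists was at 0. All 7 atrial markers had a positive change and 2 were called higher (list median 2.05), with sums of 3324 to 6163 CPM in control 5w and 5247, 229 and 23415 CPM in control 9w 1, 2 and 3. Of the mesothelial list, where all 3 tested had a positive change, 1 marker was called higher. The smooth muscle list had 1 called higher, with 3 changes positive and 5 negative (list median −0.11). Of the cardiomyocyte list (2 positive, 6 negative) and the lymphocyte list (2 positive, 4 negative) 1 each was called lower. The part of all these lists in the change of Nr4a1 was not tested.

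Across the 7 groups, Nr4a1 averaged 17.3 ± 1.80 CPM (SD, n = 3) in control 5w, 66.3 ± 25.2 (n = 3) in control 9w, 71.4 ± 6.05 (n = 2) in EMPA, 77.7 ± 19.6 (n = 3) in HFpEF, 107 ± 20.8 (n = 2) in PFD, 158 ± 55.7 (n = 3) in EMPA + PFD and 253 ± 78.9 (n = 3) in untreated hearts. Of neighbours in this order, only control 9w and control 5w passed edgeR's test, while EMPA and control 9w (edgeR BH-adjusted p = 0.921), PFD and EMPA + PFD (0.614) and untreated and EMPA + PFD (0.138) did not. Untreated hearts exceeded HFpEF hearts of week 5 by 1.70 ± 0.31 on the log2 scale (edgeR BH-adjusted p = 0.0436), and these groups differ completely in RT1-CE16. Jun kept nearly the same order, from 147 ± 21.0 CPM in control 5w (n = 3) through 217 ± 20.3 in control 9w (n = 3), 238 ± 7.83 in EMPA (n = 2), 263 ± 29.7 in HFpEF (n = 3), 320 ± 38.9 in EMPA + PFD (n = 3) and 331 ± 42.1 in PFD (n = 2) to 391 ± 53.0 in untreated hearts (n = 3). Here too only control 5w and control 9w passed the test among neighbours, and edgeR BH-adjusted p of the other neighbours ran from 0.132 to 0.941.

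Fos ran from 9.26 ± 6.47 CPM in control 5w (n = 3) through 16.5 ± 10.5 in control 9w (n = 3), 26.2 ± 2.25 in EMPA (n = 2), 46.7 ± 33.0 in HFpEF (n = 3), 51.4 ± 31.5 in PFD (n = 2) and 54.2 ± 22.2 in EMPA + PFD (n = 3) to 82.1 ± 35.5 in untreated hearts (n = 3). No neighbours in this order passed edgeR's test, and all overlapped. Fosb stood at 4.87 ± 0.221 CPM in control 5w, 9.16 ± 2.86 in control 9w, 14.0 ± 5.89 in HFpEF, 15.4 ± 6.12 in EMPA, 16.0 ± 0.0391 in PFD, 19.7 ± 8.75 in EMPA + PFD and 42.2 ± 29.9 in untreated hearts. Junb followed with 65.1 ± 22.4 CPM in control 5w, 108 ± 11.4 in control 9w, 141 ± 37.4 in PFD, 149 ± 3.58 in EMPA, 155 ± 43.8 in EMPA + PFD, 185 ± 103 in HFpEF and 208 ± 25.3 in untreated hearts. For both, untreated hearts were highest and control 5w lowest, and no neighbours passed edgeR's test, although control 5w and control 9w did not overlap.

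Among the EGR genes, Egr1 ran from 22.5 ± 7.88 CPM in control 5w through 35.5 ± 12.6 in control 9w, 70.2 ± 10.5 in EMPA, 81.2 ± 11 in PFD, 93.9 ± 30.2 in HFpEF and 100.5 ± 85.2 in EMPA + PFD to 133 ± 49.3 in untreated hearts. Egr3 ran from 0.909 ± 0.773 CPM in control 9w through 1.66 ± 0.459 in control 5w, 1.72 ± 1.44 in EMPA + PFD, 1.88 ± 1.27 in PFD, 2.16 ± 0.0393 in EMPA and 4.54 ± 1.98 in HFpEF to 6.78 ± 4.81 in untreated hearts. Egr2 had another order, from 3.26 ± 1.91 CPM in control 9w through 5.06 ± 0.750 in PFD, 5.72 ± 5.62 in EMPA + PFD, 9.68 ± 3.14 in EMPA, 9.74 ± 6.0 in control 5w and 12.9 ± 9.45 in untreated hearts to 21.3 ± 10.9 in HFpEF. No neighbours in these 3 orders passed edgeR's test, although control 9w and EMPA did not overlap in Egr1, nor EMPA and HFpEF in Egr3.

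Atf3 and Fosl2 were not highest in untreated hearts. Atf3 stood at 11.4 ± 4.41 CPM in control 5w, 19 ± 7.55 in control 9w, 25.4 ± 6.07 in HFpEF, 32.2 ± 22.3 in EMPA, 67.4 ± 51.6 in EMPA + PFD, 69.7 ± 17.6 in untreated hearts and 85.8 ± 30.5 in PFD. Fosl2 stood at 6.18 ± 2.23 CPM in control 5w, 10.8 ± 0.905 in control 9w, 13 ± 6.65 in HFpEF, 14.1 ± 2.85 in EMPA, 17.6 ± 2.04 in untreated hearts, 19.2 ± 6.03 in PFD and 19.7 ± 6.57 in EMPA + PFD. Their neighbours did not pass edgeR's test either, although control 5w and control 9w did not overlap in Fosl2.

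**Figure D2:**
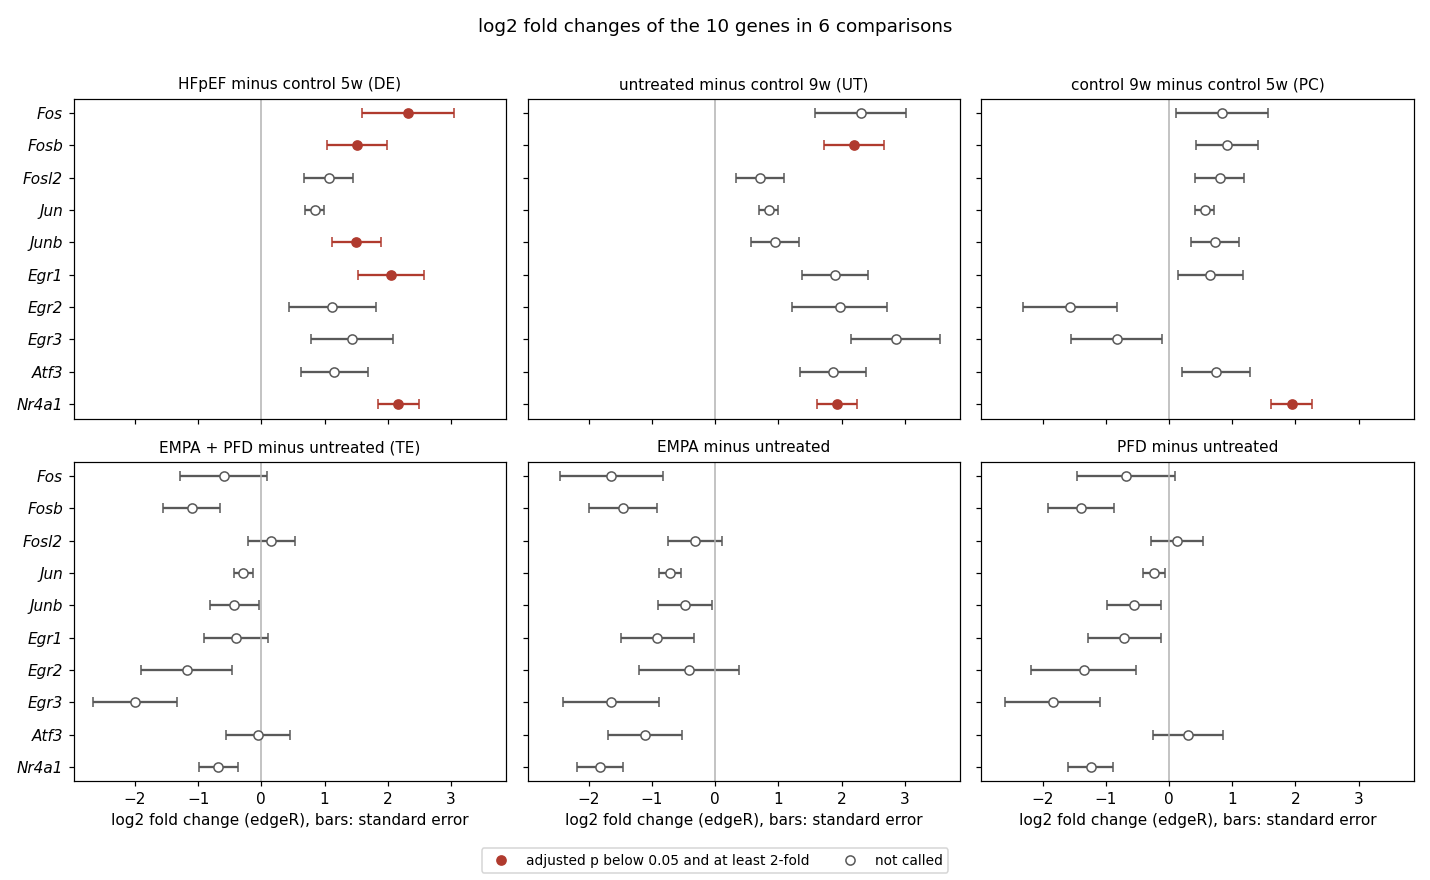
Log2 fold change of the 10 immediate early transcription factors in 6 comparisons, with bars of ± 1 SE from edgeR and red points for DEGs. In DE and UT all 10 points lay above 0, in EMPA against untreated all 10 lay below it, and in TE and in PFD against untreated 9 and 8 lay below it. None of these comparisons with untreated hearts as the reference had a DEG among the 10.

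With both drugs, none of the 10 genes was a DEG against untreated hearts (TE) in edgeR, where 2.34% of all tested genes were called higher and 1.48% lower. DESeq2 and voom each called 1 gene, Egr3, and 3 of the 10 had an unadjusted p under 0.05 in edgeR (Fosb, Egr3 and Nr4a1). Over all 12388 tested genes, DESeq2 called 714, voom called 834 and 4055 had an unadjusted p under 0.05. The change was negative for 9 of 10, with a median of −0.51 against −0.03 over all tested genes. With Eif2s3y as a term, which was chosen after seeing the data, it was positive for Fos, Junb, Egr1, Egr2 and Atf3 too. Leaving out 1 library turned the sign of Atf3 in 4 of 6 cases and that of Egr1 and of Fosl2 in 1 each. Only Egr3 lay below the untreated libraries without overlap, as did 18.7% of all tested genes.

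Egr3 had 28, 11 and 5 reads in EMPA + PFD 1, 2 and 3, or 3.31, 1.32 and 0.522 CPM, against 4.01, 12.3 and 4.00 CPM in untreated 1, 2 and 3 (−2.0 ± 0.67, edgeR BH-adjusted p = 0.0607). It became a DEG without untreated 1 (−2.26, edgeR BH-adjusted p = 0.0414) and without EMPA + PFD 1 (−2.88, 0.0239), while without untreated 2 it was at −1.23 (0.319), within a range of 0.0067 to 0.584 over all alternatives. Fosb stood at 18.2, 11.7 and 29.0 CPM with both drugs, and EMPA + PFD 3 was above untreated 1 and 3 (−1.10 ± 0.45, edgeR BH-adjusted p = 0.109). It became a DEG without untreated 1 (−1.40, edgeR BH-adjusted p = 0.0483) and was at −0.34 without untreated 2 (0.669, range 0.0483 to 0.669). Nr4a1 was at 212, 162 and 100 CPM, of which EMPA + PFD 1 was above untreated 1 (−0.68 ± 0.31, edgeR BH-adjusted p = 0.138).

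The treated hearts disagreed with each other in several members. Egr1 was at 196, 31.6 and 74.2 CPM in EMPA + PFD 1, 2 and 3. With TMM scaling EMPA + PFD 1 was thus the highest of all 19 libraries, but on total counts untreated 2 was above it (230 against 177 CPM). EMPA + PFD 2 lay within the range of control 9w. Atf3 went the other way, at 27.3, 126 and 49.1 CPM, with EMPA + PFD 2 the highest of all libraries. Changes in TE were −0.40 ± 0.50 for Egr1 and −0.05 ± 0.50 for Atf3.

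Against control 9w, the hearts given both drugs had 3 DEGs of 10 in edgeR, all higher (Egr1, Atf3 and Nr4a1), where 7.15% of all tested genes were called higher and 4.92% lower. DESeq2, voom and a fit of only the groups compared also called Fos and Fosb higher, and called 1617, 1958 and 1632 genes in all. All 10 changes were positive, with a median of 0.98 against −0.08 over all tested genes. The groups did not overlap for 4 genes (Fos, Fosl2, Jun and Nr4a1), as for 24.7% of all tested genes. Nr4a1 was higher by 1.25 ± 0.31 (edgeR BH-adjusted p = 0.00779), Atf3 by 1.82 ± 0.53 (0.0168) and Egr1 by 1.5 ± 0.52 (0.0367). Jun was higher below 2-fold (0.56 ± 0.15, edgeR BH-adjusted p = 0.0112). Both groups had Eif2s3y and RT1-CE16 reads in every library.

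The calls for Egr1 and Atf3 rested on the libraries named above. Egr1 was at 0.59 without EMPA + PFD 1 (edgeR BH-adjusted p = 0.312), and was lost also without control 9w 1 (0.0826) and control 9w 2 (0.134), within a range of 0.0108 to 0.312. It was lost as well in a fit of only the groups compared (1.52, edgeR BH-adjusted p = 0.0770) and fell short of 2-fold by voom (0.95). Atf3 was at 1.01 without EMPA + PFD 2 (edgeR BH-adjusted p = 0.135), and was lost also without control 9w 1 (0.0677) and control 9w 2 (0.0672), within 0.000587 to 0.135. Nr4a1 fell just short of 2-fold without EMPA + PFD 1 (edgeR BH-adjusted p = 0.0318, range 0.000601 to 0.0409). The 7 atrial markers summed to 118, 428 and 194 CPM in EMPA + PFD 1, 2 and 3, led by Nppa, against 5247, 229 and 23415 CPM in control 9w 1, 2 and 3, and 5 of 7 were called lower, 3 of them without overlap, although the sum of control 9w 2 lay within those of the treated hearts. Over all tested genes, 26.5% lay below control 9w without overlap. The 8 endothelial markers summed to 2399, 2008 and 2126 CPM, led by Eng or Vwf, with 5 of 8 lower. The 8 cardiomyocyte markers summed to 74731, 90279 and 70864 CPM, led by Myh6 or Myh7, with 3 of 8 higher. The 5 erythroid markers, led by Hbb, summed to 141, 469 and 207 CPM, with 3 of the 4 tested lower. None of these markers but Hba-a2 was at 0, and their part in the result was not tested.

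With EMPA alone (n = 2), all 10 changes against untreated hearts were negative, with a median of −1.01 against 0.01 over all tested genes, and 8 genes (all but Fosl2 and Egr2) lay below the untreated libraries without overlap, as did 11.4% of all tested genes. With Eif2s3y as a term, which was chosen after seeing the data, Fos, Fosl2, Junb and Egr2 had a positive change, and so had Egr2 by voom. None was a DEG in edgeR, where 0.0161% of all tested genes were called higher and 0.0242% lower. The unadjusted p was under 0.05 for 4 of the 10 (Fosb, Jun, Egr3 and Nr4a1), and DESeq2 and voom each called Nr4a1. Over all 12388 tested genes, 1069 had an unadjusted p under 0.05, DESeq2 called 51 and voom called 24. Nr4a1 was at 67.1 and 75.7 CPM in EMPA 1 and 2, below every untreated library and within the range of control 9w (−1.82 ± 0.37, edgeR BH-adjusted p = 0.10, range 0.000365 to 0.557 over all alternatives). Jun stood at 243 and 232 CPM (−0.72 ± 0.17, edgeR BH-adjusted p = 0.169), and Fos at 24.6 and 27.8 CPM (−1.65 ± 0.82, edgeR BH-adjusted p = 0.609). The 5 erythroid markers, led by Hbb, summed to 2252 and 438 CPM in EMPA 1 and 2, and all 4 tested lay above the untreated libraries with an unadjusted p under 0.05 (list median 3.09). Over all tested genes, 12.3% lay above the untreated libraries. The 7 atrial markers, led by Nppa, summed to 731 and 5219.6 CPM, above the 82.5 and 510 CPM of untreated 1 and 3 and below the 14940 CPM of untreated 2, with an unadjusted p under 0.05 for 4 of 7 (list median −5.04), of which 1 lay below the untreated libraries without overlap. None of either list was called in edgeR, only Hba-a2 was at 0, and their part in the result was not tested.

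With PFD alone (n = 2), none of the 10 was a DEG against untreated hearts in edgeR, in DESeq2 or in voom. By edgeR, 0.00807% of all tested genes were called higher and 0% lower, and DESeq2 and voom called 4 and 5 genes in all. An unadjusted p under 0.05 was found for 3 of the 10 (Fosb, Egr3 and Nr4a1) and for 646 of all 12388 tested genes. The change was negative for 8 genes, with a median of −0.69 against −0.02 over all tested genes, and 6 (Fosb, Junb, Egr1, Egr2, Egr3 and Nr4a1) lay below the untreated libraries, as did 12.8% of all tested genes. Nr4a1 was at 92.3 and 122 CPM (−1.24 ± 0.36, edgeR BH-adjusted p = 0.786) and Fosb at 16.0 and 16.0 CPM (−1.40 ± 0.53, 0.786). Atf3 stood at 107 and 64.2 CPM, of which PFD 2 lay within the untreated range of 49.5 to 80.9 CPM and PFD 1 above it (0.30 ± 0.56). These groups were alike in Eif2s3y and RT1-CE16. The erythroid markers, led by Hbb, summed to 692 and 837 CPM in PFD 1 and 2, and all 4 tested lay above the untreated libraries, 3 of them with an unadjusted p under 0.05 (list median 1.87). Over all tested genes, 11.4% lay above the untreated libraries. The atrial markers, led by Nppa, summed to 3017 and 90.7 CPM, the first above untreated 1 and 3, the second above untreated 1, and both below the 14940 CPM of untreated 2, with an unadjusted p under 0.05 for 5 of 7 (list median −5.70), of which 1 lay below the untreated libraries without overlap. None of either list was called in edgeR, only Hba-a2 was at 0, and their part in the result was not tested.

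Whether 1 drug acted differently in the presence of the other was tested as an interaction. None of the 10 genes was called in edgeR, where 0.00807% of all tested genes were called in either direction, 3 had an unadjusted p under 0.05 (Fosb, Jun and Nr4a1), and DESeq2 and voom each called Nr4a1. Of all 12388 tested genes, 1131 had an unadjusted p under 0.05, DESeq2 called 38 and voom called 63. All 10 interaction terms were positive in edgeR, with a median of 0.99 against −0.01 over all tested genes, while that of Egr2 was negative by voom. Nr4a1 had the largest (2.39 ± 0.50, edgeR BH-adjusted p = 0.156), followed by Fosb (1.76 ± 0.74, 0.504) and Fos (1.73 ± 1.12, 0.674). A positive term says that the level with both drugs was above the sum of the separate log2 changes. Of the 4 groups in this test only EMPA lacked RT1-CE16 reads, so that difference and the interaction cannot be told apart. Of the marker lists given here, the erythroid list had an unadjusted p under 0.05 for 4 of 4 tested (list median −4.32), the neutrophil list for 2 of 4 (−2.02) and the atrial list for 0 of 7 (3.97), with none called in edgeR. The 5 neutrophil markers, led by S100a9, summed to 18.0, 25.9 and 24.2 CPM in untreated, 66.1 and 22.2 in EMPA, 35.2 and 8.13 in PFD and 4.14, 12.2 and 11.4 in EMPA + PFD hearts, with Mpo at 0 in 14 of 19 libraries and Cxcr2 in 2. The part of these markers in the result was not tested.

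Genes of the same response outside the 10 were followed in lists by role. Of 21 other tested immediate early transcription factors, 8 were called higher and 0 lower in DE, and 9 higher and 0 lower in PC, which share control 5w. In DE these included Ier2 (1.54 ± 0.21), the Krüppel-like factors Klf4 (1.40 ± 0.20), Klf6 (1.13 ± 0.16) and Klf2 (1.38 ± 0.25), the C/EBP factor Cebpd (2.03 ± 0.32) and the clock gene Per1 (1.88 ± 0.31). In PC they included Per1 (2.87 ± 0.33), Csrnp1 (2.14 ± 0.33), Klf2 (1.90 ± 0.25), Ier2 (1.63 ± 0.21), Klf4 (1.58 ± 0.20) and Klf6 (1.01 ± 0.16). The list median was 0.56 in DE and 0.98 in PC, against 0.02 and −0.04 over all tested genes.

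In UT, 2 of these 21 were called higher and 0 lower, namely Nr4a2 (2.50 ± 0.31, edgeR BH-adjusted p = 0.00435), the closest relative of Nr4a1, and Nfil3 (1.02 ± 0.22, 0.0310), a basic leucine zipper repressor. The list median was −0.30, opposite in sign to that of the 10 genes. For the difference of DE and UT, 10 of the 21 were called higher in DE and 2 higher in UT, among them Per1 (2.80 ± 0.44), Klf4 (1.65 ± 0.27) and Nr4a2 (−2.31 ± 0.43). In TE, Nr4a2 was lower (−1.53 ± 0.30, edgeR BH-adjusted p = 0.0113) and Nr4a3 higher (1.92 ± 0.60, 0.0481). Against control 9w, hearts given both drugs had Nfil3 higher (1.06 ± 0.22) and Klf4, Klf2, Hes1 and Snai1 lower (−1.12 ± 0.19, −1.39 ± 0.25, −1.09 ± 0.26 and −1.25 ± 0.40).

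Immediate early effectors are known to be induced with the core set but are not transcription factors of it. Of 30 tested, 12 were called higher and 1 lower in DE, led by the kinase Sgk1 (2.12 ± 0.22), the GTPase Rhob (1.37 ± 0.15), the mRNA decay factor Zfp36 (2.23 ± 0.24), the NF-κB inhibitor Nfkbia (2.24 ± 0.25), Btg2 (1.21 ± 0.16) and Id1 (1.67 ± 0.24). In PC 10 were called higher and 0 lower, led by Sgk1 (2.96 ± 0.23) and Nfkbia (3.01 ± 0.26). In UT 0 were called higher and 1 lower, Nfkbia (−1.15 ± 0.24, edgeR BH-adjusted p = 0.0291). For the difference of DE and UT, 9 were called higher in DE and 0 higher in UT, led by Sgk1 (3.02 ± 0.30) and Nfkbia (3.39 ± 0.34). In TE, Trib1 (1.29 ± 0.32) and Phlda1 (1.01 ± 0.23) were higher and Id3 (−1.16 ± 0.31) and Plk3 (−1.08 ± 0.31) lower. Against control 9w, hearts given both drugs had 2 higher, among them Trib1 (1.04 ± 0.32), and 5 lower, led by Id1 (−1.69 ± 0.24) and Sgk1 (−1.39 ± 0.21).

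Among 16 feedback regulators, which end the response by removing phosphate from MAP kinases or by blocking the factors, 2 were called higher in DE, the phosphatases Dusp1 (2.18 ± 0.21) and Dusp2 (2.41 ± 0.41), and 0 lower. In PC 5 were called higher, led by Dusp1 (2.57 ± 0.21) and the receptor signaling inhibitor Spry1 (1.58 ± 0.22), and 2 lower, of which Dusp4 was at −1.80 ± 0.49. In UT only Spry1 was called, and it was lower (−1.10 ± 0.22, edgeR BH-adjusted p = 0.0247). None was called in TE in edgeR, where 2 of 16 had an unadjusted p under 0.05, and the smallest edgeR BH-adjusted p was that of Nab2, a corepressor of EGR proteins (−0.97 ± 0.22, 0.0182), which did not reach 2-fold. Against control 9w, Rcan1 was higher with both drugs (1.32 ± 0.42) and Nab2 (−1.08 ± 0.22), Spry1 (−1.02 ± 0.22) and Dusp2 (−1.40 ± 0.41) lower. For the difference of DE and UT, 4 were called higher in DE, led by Dusp1 (2.49 ± 0.28), and 3 higher in UT, among them Rcan1 (−2.14 ± 0.59).

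Of 17 dimer partners and ATF or MAF relatives, none was called in DE or in UT in edgeR, where 7 and 4 had an unadjusted p under 0.05. Over all 12388 tested genes, 4436 in DE and 2259 in UT had an unadjusted p under 0.05. The smallest adjusted p in DE was that of Atf5 (0.97 ± 0.15, edgeR BH-adjusted p = 0.00135), and in UT that of Mafg (−0.41 ± 0.10, 0.0550). In PC, Maff (1.24 ± 0.28), Fosl1 (1.03 ± 0.26) and Crem (1.02 ± 0.33) were called higher and Maf lower (−1.24 ± 0.33). In TE none was called, 4 had an unadjusted p under 0.05, and Atf5 had the smallest adjusted p (−0.73 ± 0.15, edgeR BH-adjusted p = 0.0135). Against control 9w, 1 was called with both drugs, Creb5, and it was lower (−1.44 ± 0.33). For the difference of DE and UT, Jdp2 (1.19 ± 0.36), Maff (1.28 ± 0.39) and Fosl1 (1.09 ± 0.37) were called higher in DE.

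Of 26 tested upstream kinases and cofactors of SRF, 0 were called higher and 1 lower in DE, the SRF cofactor Myocd (−1.14 ± 0.27, edgeR BH-adjusted p = 0.0123), and none in UT in edgeR, where 10 had an unadjusted p under 0.05. In PC, Map2k6 (1.11 ± 0.26) and Mapk10 (2.96 ± 0.70) were called higher, and in TE the ETS factor Elk3 lower (−1.03 ± 0.22). Against control 9w, Myocd was higher with both drugs (1.63 ± 0.27) and Mapk10 lower (−3.03 ± 0.73), and Myocd was the 1 gene called for the difference of DE and UT (−1.86 ± 0.38). With changes below 2-fold counted too, edgeR BH-adjusted p was under 0.05 for 6 of the 26 in DE, 12 in PC, 9 in TE and 15 with both drugs against control 9w, where this held for 2478, 4276, 1501 and 4181 of all 12388 tested genes.

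Of 21 tested genes known as AP-1 or EGR targets, F3, which encodes tissue factor, was higher in DE (2.48 ± 0.26), in PC (1.41 ± 0.26) and in TE (1.21 ± 0.25), and the chemokine gene Cxcl1 in DE (1.20 ± 0.39), where Fhl2 was lower (−1.63 ± 0.53). In PC, Vegfa was also higher (1.21 ± 0.36) and Plau (−1.55 ± 0.55) and Ccl2 (−1.13 ± 0.41) were lower, with a list median of −0.05. None of the targets was called in UT in edgeR, where 4 had an unadjusted p under 0.05, and the adhesion molecule Icam1 (−1.32 ± 0.24), the growth factor Pdgfb (−1.22 ± 0.29) and the cyclin Ccnd1 (−1.02 ± 0.26) were lower in TE. Against control 9w, F3 (1.05 ± 0.25) and Fhl2 (1.95 ± 0.54) were higher with both drugs and 3 targets lower, among them Ccnd1 (−1.59 ± 0.26). For the difference of DE and UT, F3 was higher in DE (2.64 ± 0.36) and Fhl2 lower (−2.58 ± 0.75).

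Heat shock genes belong to a separate stress response. Of 15 tested, 0 were called higher and 2 lower in DE (Hspb8 −1.09 ± 0.29 and Hspd1 −1.12 ± 0.34), 1 lower in PC (Hspd1 −1.20 ± 0.34), and 3 higher with both drugs against control 9w (Hspd1 1.69 ± 0.35, Bag3 1.19 ± 0.30 and Hspb8 1.06 ± 0.29). None was called in UT or TE in edgeR, where 2 and 5 had an unadjusted p under 0.05. Hspd1 (−1.83 ± 0.48) and Hspb8 (−1.58 ± 0.41) were called lower in DE for the difference of DE and UT. In EMPA or PFD against untreated hearts and for the interaction, edgeR called no gene of any of these lists. The smallest edgeR BH-adjusted p there was that of the growth inhibitor Btg2 in EMPA (0.10), at −0.93 ± 0.18. In the order dimer partners, other transcription factors, effectors, feedback regulators, upstream genes, targets and heat shock genes, unadjusted p was under 0.05 for 1, 6, 6, 3, 1, 2 and 1 genes in EMPA, for 0, 3, 4, 1, 0, 3 and 1 in PFD, and for 0, 3, 4, 0, 2, 0 and 1 for the interaction.

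Among the markers of other cell types, in DE the lymphocyte genes Cd8a (1.85 ± 0.49) and Cd3d (1.83 ± 0.56), the endothelial gene Vwf (1.01 ± 0.27), the mesothelial genes Wt1 and Msln and the erythroid gene Hba-a1 (2.69 ± 0.64, list median 0.64) were higher and the atrial list's Tbx5 lower (−2.14 ± 0.70). Wt1 stood at 55.2, 27.1 and 38.4 CPM in control 5w 1, 2 and 3. In HFpEF 1, 2 and 3 it was at 43.3, 117 and 126 CPM, so HFpEF 1 lay below control 5w 1. The mesothelial list summed to 65.5, 118 and 127 CPM there, nearly all of it Wt1 except in HFpEF 1. Msln was at 0 in 3 of 19 libraries. In UT, Cd3e was higher (2.50 ± 0.57, edgeR BH-adjusted p = 0.0396). In TE, the atrial genes Sln and Myl4 and the endothelial gene Eng (−1.20 ± 0.20) were lower and the muscle gene Ryr2 (1.10 ± 0.33) and the red cell anion exchanger Slc4a1 (3.74 ± 0.68) higher. The erythroid list as a whole did not separate these groups, with 3 changes positive and 1 negative (list median 0.31). It summed to 227, 181 and 297 CPM in untreated 1, 2 and 3 and to 141, 469 and 207 CPM in EMPA + PFD 1, 2 and 3. Myl4 stood at 4.33, 1597 and 4.85 CPM in untreated 1, 2 and 3 and at 4.02, 4.18 and 4.28 CPM with both drugs, so that untreated 2 alone was far above the others, and Sln had 3 to 6378 reads in untreated hearts and 4 to 6 with both drugs. No smooth muscle, neutrophil or adipocyte marker was called in DE, UT or TE in edgeR, while unadjusted p was under 0.05 for 2, 1 and 1 of them in DE, 2, 0 and 0 in UT and 2, 3 and 2 in TE. Over all 12388 tested genes, unadjusted p was under 0.05 for 4436 in DE, 2259 in UT and 4055 in TE.

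Hearts of the same group differed more in Fos than in most genes. The gene-wise biological coefficient of variation was 0.586 for Fos and for Egr2, above that of 95.7% of tested genes, 0.529 for Egr3, 0.428 for Atf3 and 0.425 for Egr1. It was 0.268 for Nr4a1 and 0.149 for Jun, the latter above that of 31.5% of tested genes. Over the 19 libraries, Fos spanned 62.3-fold from control 5w 1 to untreated 2, and Jun 3.57-fold from control 5w 1 to untreated 3. Within groups, control 5w 1 was the lowest library of its group for 9 of the 10 genes, HFpEF 2 for 8 and untreated 1 for 7.

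Deviations from the group mean were therefore compared between genes, in log2 CPM over 19 libraries, with 100000 two-sided permutations within groups and BH adjustment over the 9 relations with Fos. Fos varied with Junb (Pearson r = 0.83, permutation p = 0.00711, adjusted 0.0459; Spearman rho = 0.775, p = 0.00694, adjusted 0.0375) and with Fosl2 (r = 0.78, permutation p = 0.0169, adjusted 0.0459; rho = 0.705, p = 0.0167, adjusted 0.0375). The relations were looser with Egr1 (r = 0.54, permutation p = 0.0195, adjusted 0.0459; rho = 0.644, p = 0.0152, adjusted 0.0375) and Atf3 (r = 0.50, permutation p = 0.0204, adjusted 0.0459; rho = 0.572, p = 0.0152, adjusted 0.0375). For Egr2, r was 0.61 (permutation p = 0.0257, adjusted 0.0462) and rho 0.584 (p = 0.0323, adjusted 0.0582). With control 5w 1 and HFpEF 2 left out, the libraries with the most extreme Fos, r was 0.69 for Junb, 0.58 for Fosl2, 0.42 for Egr2, 0.40 for Egr1 and 0.40 for Atf3, so these values rest in part on those libraries. Relations with Egr3 (r = 0.35), Nr4a1 (0.30), Fosb (0.12) and Jun (0.00) did not pass, with permutation p adjusted to 0.243, 0.339, 0.732 and 0.998 and rho of 0.318, 0.184, 0.188 and −0.126. Without the same libraries, r was 0.24 for Egr3, 0.29 for Nr4a1, 0.31 for Fosb and −0.43 for Jun.

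Over all 45 pairs of the 10 genes, within-group r had a median of 0.26 and ran from −0.30 for Fosb and Jun to 0.86 for Egr3 and Nr4a1, with 37 pairs above 0 and 15 above 0.5, given as a description. The tested genes outside the 10 that most resembled their mean standardized deviation over the 19 libraries were Nr4a2 (r = 0.92), Fam71f1 (0.92), Fam20c (0.90), Tmem100 (0.90), Sdsl (0.89), Mgat2 (0.89), Cmip (0.88), Arhgap22 (0.88), RGD1311946 (0.88) and P2ry6 (0.88). Fam71f1 and Sdsl stood at no more than 2.14 and 2.09 CPM.

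Promoters were examined because several members moved together. RefSeq windows of 300 bases, 250 of them before the transcript start, on build GRCr8 were found for 6 of the 10 genes (Fosb, Fosl2, Junb, Egr1, Egr2 and Nr4a1) and not for Fos, Jun, Egr3 and Atf3. Both strands were searched. The CArG box, the DNA element that SRF binds, was found in 1.64% of all 33469 promoter windows and in those of Egr1 (2 boxes) and Egr2 (1 box). TGACG, the short form of the cAMP response element, was in 21.2% of windows and in those of Junb, Egr1, Egr2 and Nr4a1. The full element TGACGTCA, which contains TGACG, was in 1.83% of windows, and the AP-1 element TGACTCA or TGAGTCA in 4.63%, and neither was in any of the 6. The EGR motif GCGGGGGCG or GCGTGGGCG was in 3.2% of windows and in those of Fosl2 and Nr4a1, and TATAAA was in 14.2% and in those of Fosb and Junb. A match describes letters only and is not evidence of binding, and a missing match concerns only this window.

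The windows of Egr1 and Egr2 are shown because they hold CArG boxes, which alone are in capitals. They lie at chr18:26736828-26737127 (plus strand) and chr20:21054392-21054691 (minus strand) and are written 5′ to 3′. In Egr1 the boxes begin 105 and 83 bases before the transcript start, and in Egr2 83 bases before it.
Egr1: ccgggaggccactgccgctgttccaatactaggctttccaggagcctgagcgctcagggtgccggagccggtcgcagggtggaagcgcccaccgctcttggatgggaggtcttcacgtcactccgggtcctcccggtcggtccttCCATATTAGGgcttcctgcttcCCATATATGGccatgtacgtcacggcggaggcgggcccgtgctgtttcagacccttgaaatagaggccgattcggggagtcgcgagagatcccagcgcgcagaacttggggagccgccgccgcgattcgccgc
Egr2: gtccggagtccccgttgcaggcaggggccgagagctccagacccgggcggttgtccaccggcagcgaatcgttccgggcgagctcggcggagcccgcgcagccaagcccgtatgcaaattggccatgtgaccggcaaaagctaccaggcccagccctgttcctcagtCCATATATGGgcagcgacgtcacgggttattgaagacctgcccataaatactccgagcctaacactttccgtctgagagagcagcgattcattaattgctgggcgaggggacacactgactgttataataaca

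The windows of Nr4a1, the member called in DE, UT and PC, and of Junb, called in DE, are shown with TGACG or its reverse complement CGTCA in capitals, together with the EGR motif as CGCCCCCGC in Nr4a1 and TATAAA in Junb. They lie at chr7:134259888-134260187 and chr19:40080876-40081175, both on the plus strand, and are written 5′ to 3′. In Nr4a1 there are 4 matches of CGTCA, and in Junb TATAAA begins 49 bases before the transcript start.
Nr4a1: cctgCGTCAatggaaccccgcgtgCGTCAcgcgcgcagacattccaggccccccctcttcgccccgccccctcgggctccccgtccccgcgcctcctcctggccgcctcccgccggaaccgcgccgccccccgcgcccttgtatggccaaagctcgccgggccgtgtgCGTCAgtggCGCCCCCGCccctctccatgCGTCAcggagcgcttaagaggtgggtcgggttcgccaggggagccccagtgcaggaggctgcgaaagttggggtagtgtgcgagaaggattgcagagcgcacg
Junb: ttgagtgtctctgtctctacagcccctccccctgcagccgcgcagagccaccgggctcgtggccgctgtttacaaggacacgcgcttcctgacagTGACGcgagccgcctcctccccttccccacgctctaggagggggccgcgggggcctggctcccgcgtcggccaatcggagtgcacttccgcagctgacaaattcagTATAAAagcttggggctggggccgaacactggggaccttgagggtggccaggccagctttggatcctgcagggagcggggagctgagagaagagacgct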

How the data were processed

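Heart RNA of 19 rats in 7 groups was sequenced, 1 library per heart. The authors made the deposited counts per gene from trimmed reads (Trim Galore, FastQC) aligned to rn6 with HISAT2 and counted with htseq-count, with versions, annotation, strand and overlap settings not given in the sources used here. Reads of overlapping or antisense genes can therefore not be told apart. By the study's methods, 1 EMPA and 1 PFD library were left out by the authors, and they were not analysed here.

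Counts were tested in R 4.3.3 with edgeR 4.0.16 (TMM, filterByExpr, quasi-likelihood F test) in 1 model of the 7 groups, with Benjamini–Hochberg adjustment over 12388 genes. The other 5067 genes were left out as too low. DEGs had an adjusted p under 0.05 and at least a 2-fold change, and errors of log2 fold changes are SE. Alternatives were other scalings, no filter, DESeq2 1.42.0, voom with quality weights (limma 3.58.1), only the groups compared, no fold threshold, the replicate number as a block, each library left out and HFpEF without the libraries lacking Eif2s3y. The presence of Eif2s3y as a term was added after seeing the data. Correlations used log2 CPM with a prior count of 2. Floors cover counting error only. Where a group was left with 1 library, it was assumed to vary like the other groups. The method was tested on simulated counts.

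The members and all lists were chosen with earlier results of these data known. The lists held dimer partners and ATF or MAF relatives, other immediate early transcription factors, effectors, feedback regulators, upstream kinases and SRF cofactors, AP-1 and EGR targets, heat shock genes, and markers of cardiomyocytes, atrium, fibroblasts, endothelium, smooth muscle and pericytes, macrophages, neutrophils, lymphocytes, erythroid cells, adipocytes and mesothelium. A further marker list is not reported here. All 10 members were named. From each list, genes called in a comparison could be named, at most 6 in order of adjusted p, or the 2 with the smallest adjusted p where none was called, and the 10 genes most like the members were named by r. Eif2s3y and RT1-CE16 were named outside this rule from those earlier results, and Hba-a2 after its values were seen. Promoter windows came from RefSeq (GRCr8).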

Additional observations from a re-analysis of the deposited data

How the results depend on the processing

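Groups of 2 or 3 hearts and few reads of Egr3 limited precision. Over all alternatives, 1386 values of single genes kept direction and side of the threshold, 47 lost a call, 39 gained one and 54 changed sign, and 110 counts of calls stayed within 1.5 times while 34 did not. The causes of the changes below were not tested. On total counts without TMM, 2 means moved by more than their SD, Fosb in PFD (14.9 CPM) and Jun in EMPA + PFD (277 CPM).

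Members called in DE numbered 2 in a fit of only the groups compared, where 460 of all tested genes were called, against 1076 in the main fit. With Eif2s3y as a term they numbered 1, where 815 genes were called in all. That term was chosen after seeing the data and can be estimated from the HFpEF libraries alone. Without the HFpEF libraries lacking Eif2s3y, 1 HFpEF library was left, and the changes are given above. In UT they numbered 6 by DESeq2, 8 by voom, and 0 with only the groups compared or with the term. Over all tested genes, 297, 1037, 105 and 2 were called in these 4 settings, against 113 in the main fit. In PC they numbered 2 without a fold threshold and 3 by voom (Egr2 and Egr3 added, both lower), where 4276 and 2716 genes were called in all. In TE they numbered 1 by DESeq2 and 1 by voom (714 and 834 genes in all), and in EMPA against untreated 1 by each (51 and 24). In EMPA + PFD against control 9w they numbered 5 by DESeq2 (1617 genes in all). For the difference of DE and UT voom called 2 (2559 genes in all), and for the interaction DESeq2 and voom called 1 each (38 and 63 genes in all).

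With each library left out in turn, calls ranged from 1 to 5 in DE, 0 to 3 in UT, 1 to 2 in PC, 0 to 2 in TE and 1 to 3 in EMPA + PFD against control 9w. In the same order, calls over all tested genes ranged from 730 to 1113, 7 to 413, 1206 to 2025, 59 to 910 and 973 to 1556. Replicate numbers did not pair the libraries, since 4 of 21, 5 of 21 and 2 of 10 same-numbered pairs had r above 0.1. With the replicate block, calls numbered 3 in DE (Fos and Fosb lost), 1 in UT (Fosb lost) and 2 in EMPA + PFD against control 9w (Egr1 lost). Over all tested genes they numbered 932, 62 and 1407. The Fos difference of DE and UT was −0.22 with the block.

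With Eif2s3y as a term, signs on the log2 scale changed for Fosl2 in DE (−0.22, and −0.22 without the libraries lacking it), Fos (−0.28), Fosl2 (−0.95) and Junb (−0.94) in UT, Fos (1.98), Junb (1.46), Egr1 (0.49), Egr2 (0.13) and Atf3 (0.50) in TE, Fos (0.93), Fosl2 (1.34), Junb (1.40) and Egr2 (0.90) in EMPA against untreated, and the Jun difference of DE and UT (0.0266). With voom, Egr2 was at 0.18 in EMPA against untreated and −0.91 for the interaction, and the Fos difference at −0.34. With upper quartile scaling the Jun difference was 0.00189, and with a prior count of 0.5 the correlation of Fos and Jun was 0.00756.

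Leaving out 1 library gave both signs, none of them for a called gene. In TE the log2 fold change ran from −0.85 to 0.34 for Atf3, −0.10 to 0.39 for Fosl2 and −1.31 to 0.0355 for Egr1. In EMPA against untreated it ran from −0.79 to 0.38 for Egr2, and in PFD against untreated from −0.25 to 0.40 for Fosl2 and −0.12 to 0.62 for Atf3. In EMPA + PFD against control 9w it ran from −0.39 to 1.37 for Egr2 and −0.0225 to 1.83 for Egr3. The difference of DE and UT ran from −0.56 to 0.49 for Fos, −0.10 to 0.51 for Egr1, −0.11 to 0.0846 for Jun, −0.0879 to 0.52 for Nr4a1 and −0.99 to 0.0725 for Fosb, and the interaction from −0.58 to 1.03 for Egr2 and −0.0351 to 1.74 for Atf3.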
